A study of Mus musculus with 3 samples.

Results

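Chemokines, cytokines and their receptors were followed in cultured mouse dermal fibroblasts of 3 Fgfr3 genotypes. The members were a named list of 47 genes. Of these, 43 had a probe set annotated to them alone, out of 7842 named genes on the array, and where a gene had several the one brightest on average in log2 was used. Ccl20, Cxcl15, Il1rl1 and Lif had none and were not analysed here. FGFR3Act cells came from Fgfr3G374Rneo- mice, whose receptor has the G374R change and is active in the absence of ligand. FGFR3KO cells came from FGFR3G374Rneo+ mice, which carry the same change with the neo cassette and make no functional receptor. Wild type Bl6 mice gave the FGFR3WT cells. All were untreated and grown in fibroblast growth medium, and age, sex, passage and the number of animals behind a culture are not given in the labels. The table held 1 column of Affymetrix MAS5 signal intensity per genotype, whereas the series text gives 3 samples per group. No spread between cultures could therefore be computed, so differences are between single arrays, without a test or p-value.

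Chemokines are small secreted proteins that draw leukocytes along a gradient by way of G protein-coupled receptors. The CC family mainly recruits monocytes and T cells, and the CXC chemokines with an ELR motif recruit neutrophils. Fibroblasts make several of them, such as Ccl2, Ccl7, Cxcl1 and Cxcl5, after interleukin-1 or tumour necrosis factor engages NF-kB. They also make Cxcl12, a homeostatic chemokine. Ccl3, Ccl4, Ccl6, Ccl9, Ccr1 and Tnf are known mainly from macrophages and other myeloid cells.

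A signal was taken as measured above a floor, set at the 40th percentile of each array, which lay at 123 on FGFR3Act, 122 on FGFR3KO and 121 on FGFR3WT. Lower signals were set to the floor, so a fold against such an array is given as "at least". Such a bound under 2-fold leaves the size of the difference unknown, and counts of genes 2-fold apart hold only differences that the floor lets be seen. Fgfr3 itself, on 1 probe set, read 2.42 on FGFR3Act, 3.76 on FGFR3KO and 1.06 on FGFR3WT, all below the floor, so it did not check the genotypes. Of 11 dermal fibroblast markers, 10 were above the floor on every array, and the 11 summed to 49574 on FGFR3Act and 71722 on FGFR3KO, against 52532 on FGFR3WT. Gene by gene, 7 of the 10 were lower on FGFR3Act than on FGFR3WT and 3 higher, with a median log2 difference of -0.29. Pdgfrb was the 1 past 2-fold, 2.35-fold lower on FGFR3Act. Against FGFR3KO, 8 were lower on FGFR3Act and 2 higher, with a median of -0.52 and 2 of them 2-fold or more lower. Markers of macrophages and monocytes set FGFR3Act apart. FGFR3Act had 13 of 16 such markers over the floor, FGFR3KO 2 and FGFR3WT 1, and the 16 summed to 24047 on FGFR3Act and 1319 on FGFR3KO, against 1144 on FGFR3WT. Lyz2, Cd68, Csf1r and Adgre1 were among the 13, whereas Itgam, Ptprc and Marco were below the floor on all 3 arrays, and none was at 0. A bulk array cannot tell fewer cells of a type from less RNA per cell, and the part of the macrophage markers in the results below was not tested.

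The upstream sequences of 4 members with an FGFR3Act signal 2-fold or more above FGFR3WT are shown, being those with the highest FGFR3Act signal among the members in the promoter table. They are the 250 bases before the RefSeq start, read 5′ to 3′ on the gene's strand in assembly GRCm38.p6. Capitals mark matches, on either strand, to NF-kB (GGG, any 3 bases, then TTCC), AP-1 (TGANTCA) or C/EBP (TTGCNNAA) motifs, where N is any base. Saa3 lies at chr7:46715677-46715926 on the minus strand, Cxcl1 at chr5:90890995-90891244 on the plus strand, Ccl9 at chr11:83578637-83578886 on the minus strand and Lcn2 at chr2:32387740-32387989 on the minus strand.
Saa3: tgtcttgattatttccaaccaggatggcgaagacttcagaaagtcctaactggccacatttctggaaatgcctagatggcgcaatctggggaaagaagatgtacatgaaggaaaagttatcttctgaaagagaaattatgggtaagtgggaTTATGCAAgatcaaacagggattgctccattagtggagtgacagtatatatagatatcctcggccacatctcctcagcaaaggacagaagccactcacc
Cxcl1: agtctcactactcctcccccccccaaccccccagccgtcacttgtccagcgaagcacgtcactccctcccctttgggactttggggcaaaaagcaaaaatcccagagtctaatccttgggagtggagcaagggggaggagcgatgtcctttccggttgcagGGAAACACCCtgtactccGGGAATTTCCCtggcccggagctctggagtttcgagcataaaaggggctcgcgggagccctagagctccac
Ccl9: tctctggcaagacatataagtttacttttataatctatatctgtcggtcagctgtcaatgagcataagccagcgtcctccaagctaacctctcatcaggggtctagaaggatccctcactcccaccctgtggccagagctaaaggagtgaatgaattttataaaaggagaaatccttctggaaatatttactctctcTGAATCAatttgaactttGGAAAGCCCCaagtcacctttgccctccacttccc
Lcn2: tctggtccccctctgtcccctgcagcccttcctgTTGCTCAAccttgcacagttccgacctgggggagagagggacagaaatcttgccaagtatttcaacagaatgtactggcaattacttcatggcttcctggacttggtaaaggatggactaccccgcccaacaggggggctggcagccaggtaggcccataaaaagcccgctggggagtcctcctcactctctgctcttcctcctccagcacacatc

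In the Cxcl1 sequence the NF-kB pattern was matched 3 times, at 89, 71 and 70 bases before the start, and the last 2 matches overlap. Ccl9 held an NF-kB match, GGAAAGCCCC on the strand shown, and an AP-1 match, TGAATCA. Saa3 and Lcn2 each held 1 C/EBP match, TTATGCAA and TTGCTCAA. Over the 42 promoters of 36 members in the table, 26.2% held the NF-kB pattern, against 4.65% of all 32851 promoters of this length. The AP-1 pattern was in 16.7% of member promoters against 6.75% of all, and the C/EBP pattern in 16.7% against 9.56%. Members 2-fold or more higher on FGFR3Act than on FGFR3WT had 11 promoters of 9 genes in the table. Of these 11, 3 held the NF-kB pattern, 2 the AP-1 pattern and 2 the C/EBP pattern. Ccl3, Ccl6, Ccl8 and Ccr1, which are among these genes, held no match to any of the patterns. The NF-kB pattern was also found upstream of members under 2-fold apart between FGFR3Act and FGFR3WT, such as Csf1, Il1r1, Il6 and Nfkbia. It was found too upstream of Cxcl2, Cxcl10 and Tnfaip3, which were below the floor on every array. The C/EBP pattern was likewise found upstream of Ackr3, Csf2, Cxcl13, Il1r1 and Il6, none of them 2-fold or more higher on FGFR3Act than on FGFR3WT. A match describes the letters only and is not a site of binding.

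The members 2-fold or more higher on FGFR3Act than on FGFR3WT were the chemokines Ccl2, Ccl3, Ccl6, Ccl7, Ccl8, Ccl9, Cxcl1 and Cxcl5, the receptor Ccr1, the antagonist Il1rn and the acute-phase genes Saa3 and Lcn2. Of the 43 members, 28 were above the floor on at least 1 of the 2 arrays, 12 of these were 2-fold or more above FGFR3WT and 0 were 2-fold or more below it. The same pair took in 5244 genes in all, with 4.14% above and 4.79% below FGFR3WT by 2-fold or more. Members above the floor on FGFR3Act alone could differ in one direction only. The same count was also taken without the filter, which widens the set of genes but does not lift that limit. It was then 12 higher and 0 lower of 43 members (27.9% higher), against 2.77% higher and 3.20% lower of 7842 named genes. Among the 18 members above the floor on all 3 arrays, 6 passed 2-fold on FGFR3Act (Ccl2, Ccl7, Cxcl1, Cxcl5, Il1rn and Saa3) and 0 were 2-fold or more lower. The share over all genes above the floor on all 3 arrays was not computed, so the percentages above are no background for this count. The macrophage markers were also higher on FGFR3Act, with 13 of 16 past 2-fold.

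**Figure D1:**
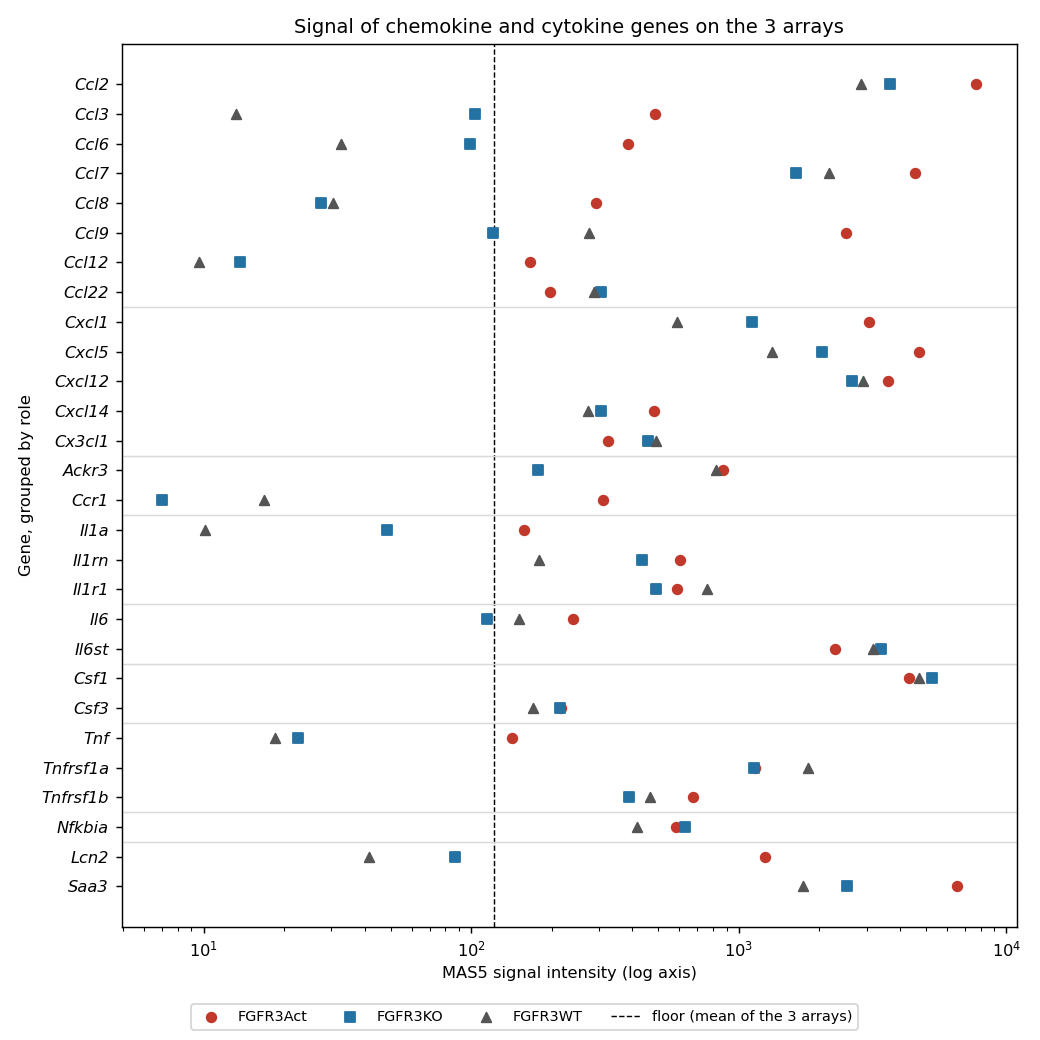
MAS5 signal intensity (log axis) of the 28 members above the floor on at least 1 array, with 1 point per array and the dashed line at the mean floor. Ccl2, Ccl7, Cxcl1, Cxcl5 and Saa3 lie above the floor on all 3 arrays and highest on FGFR3Act, whereas Ccl3, Ccl6, Ccl8, Ccr1 and Lcn2 lie above it on FGFR3Act alone.

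Monocyte attractants of the CC family came in 2 kinds, those present in every genotype and those above the floor on FGFR3Act alone. Ccl2, the main attractant of Ccr2-bearing monocytes, had signals of 7710 on FGFR3Act and 3676 on FGFR3KO, against 2857 on FGFR3WT. Ccl7, which acts on the same receptor, had 4561 on FGFR3Act and 1632 on FGFR3KO, against 2173 on FGFR3WT. Both were thus high in all 3 genotypes and highest on FGFR3Act, by 2.70-fold and 2.10-fold over FGFR3WT. Ccl8, a further monocyte attractant, had 293 on FGFR3Act and 27.4 on FGFR3KO, against 30.5 on FGFR3WT, at least 2.42-fold higher on FGFR3Act. Ccl12, a mouse monocyte chemokine, had 166 on FGFR3Act and 13.6 on FGFR3KO, against 9.57 on FGFR3WT, at least 1.38-fold higher on FGFR3Act. Ccl2, Ccl7, Ccl11, Ccl12 and Ccl8 lie next to each other on chromosome 11 in that order, and Ccl11, an eosinophil attractant, stayed below the floor, with 72.4 on FGFR3Act and 43.6 on FGFR3KO, against 27.7 on FGFR3WT.

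Another run of CC chemokine neighbours on chromosome 11 had the order Ccl5, Ccl9, Ccl6, Ccl3 and Ccl4. Ccl9, a myeloid attractant found in rodents, had signals of 2514 on FGFR3Act and 121 on FGFR3KO, against 276 on FGFR3WT, and was the only one of the 5 above the floor outside FGFR3Act. Its FGFR3Act signal was 9.10-fold that of FGFR3WT. Ccl3, a macrophage inflammatory protein, had 486 on FGFR3Act and 103 on FGFR3KO, against 13.2 on FGFR3WT, at least 4.03-fold higher on FGFR3Act. Ccl6, made by myeloid cells, had 384 on FGFR3Act and 99.0 on FGFR3KO, against 32.6 on FGFR3WT, at least 3.18-fold higher on FGFR3Act. These 3 differed in the same direction, and the other two were below the floor on every array. Ccl5 had 121 on FGFR3Act and 40.6 on FGFR3KO, against 10.5 on FGFR3WT, and so lay just under the floor of the first array. Ccl4 had 83.8 on FGFR3Act and 21.5 on FGFR3KO, against 14.6 on FGFR3WT. Ccl22, a ligand of Ccr4 known from macrophages and dendritic cells, went the other way from these, with 198 on FGFR3Act and 304 on FGFR3KO, against 288 on FGFR3WT, and was within 2-fold in each pair.

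The neutrophil attractants Cxcl1 and Cxcl5 of the CXC family were above the floor in every genotype, whereas Cxcl2 was below it in all. Cxcl1 had signals of 3071 on FGFR3Act and 1122 on FGFR3KO, against 589 on FGFR3WT, and its other probe set had 2446 on FGFR3Act and 829 on FGFR3KO, against 659 on FGFR3WT. The FGFR3Act signal was thus 5.22-fold and 3.71-fold that of FGFR3WT on the 2 probe sets. Cxcl5 had 4725 on FGFR3Act and 2042 on FGFR3KO, against 1326 on FGFR3WT, 3.56-fold higher on FGFR3Act. For both genes FGFR3KO lay between the other arrays, as it did for Ccl2. Cxcl2, which neighbours Cxcl1 on chromosome 5, had 107 on FGFR3Act and 51.7 on FGFR3KO, against 27.4 on FGFR3WT. Of 7 neutrophil markers measured, S100a9, Elane, Mpo, Ngp and Ltf were below the floor on all 3 arrays. S100a8 had 305 on FGFR3Act and 78.1 on FGFR3KO, against 30.8 on FGFR3WT, at least 2.53-fold higher on FGFR3Act. Camp was above the floor on all 3 arrays, with 221 on FGFR3Act and 166 on FGFR3KO, against 126 on FGFR3WT.

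Homeostatic chemokines of the stroma were closer together. Cxcl12, which retains haematopoietic cells through Cxcr4, had signals of 3598 on FGFR3Act and 2648 on FGFR3KO, against 2900 on FGFR3WT. Its other probe set had 1706 on FGFR3Act and 1425 on FGFR3KO, against 1975 on FGFR3WT. The probe sets disagreed in direction between FGFR3Act and FGFR3WT, with folds of 1.24 and 0.864. Cxcl14, a chemokine of skin and other epithelia, had 480 on FGFR3Act and 304 on FGFR3KO, against 273 on FGFR3WT, 1.76-fold higher on FGFR3Act and under the 2-fold limit. Cx3cl1, a membrane-bound chemokine, had 323 on FGFR3Act and 457 on FGFR3KO, against 492 on FGFR3WT, 1.52-fold lower on FGFR3Act. The interferon-induced Cxcl9 and Cxcl10 and the B cell attractant Cxcl13 were below the floor on all 3 arrays, with no signal over 89.8.

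Of the 4 chemokine receptors, Ccr1 and Ackr3 were above the floor. Ccr1, a receptor of monocytes and macrophages for Ccl3, Ccl6 and Ccl9, had signals of 310 on FGFR3Act and 7.0 on FGFR3KO, against 16.7 on FGFR3WT, at least 2.56-fold higher on FGFR3Act. Ccr2, the receptor for Ccl2 and Ccl7, was below the floor everywhere, at 13.5 on FGFR3Act and 7.77 on FGFR3KO, against 5.13 on FGFR3WT. Cxcr4 was also below it, at 51.3 on FGFR3Act and 11.7 on FGFR3KO, against 13.5 on FGFR3WT. Ackr3, the atypical receptor that binds and clears Cxcl12, had 873 on FGFR3Act and 178 on FGFR3KO, against 823 on FGFR3WT. FGFR3KO was thus the low array for Ackr3, 4.62-fold below FGFR3WT, while FGFR3Act and FGFR3WT were 1.06-fold apart. Of 13 other chemokine receptors with a probe set, 11 were below the floor on all arrays, and neither Cx3cr1 nor Xcr1 was shown to be 2-fold apart in any pair. Xcr1 had 180 on FGFR3Act and 195 on FGFR3KO, against 113 on FGFR3WT, which is below the floor, so its folds of at least 1.49 and at least 1.62 over FGFR3WT are bounds.

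The interleukin-1 system held an antagonist that was higher in both mutants. Il1rn, which blocks the interleukin-1 receptor, had signals of 605 on FGFR3Act and 435 on FGFR3KO, against 178 on FGFR3WT. FGFR3WT was the low array, with FGFR3Act 3.39-fold and FGFR3KO 2.44-fold higher. The agonist Il1a had 157 on FGFR3Act and 48.6 on FGFR3KO, against 10.1 on FGFR3WT, at least 1.30-fold higher on FGFR3Act, and Il1b was below the floor on all arrays, at 14.8 on FGFR3Act and 6.89 on FGFR3KO, against 11.98 on FGFR3WT. The signalling receptor Il1r1 had 590 on FGFR3Act and 492 on FGFR3KO, against 762 on FGFR3WT, within 2-fold in each pair.

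Interleukin-6 and the growth factors of myeloid cells did not reach the 2-fold limit, although Il6 against FGFR3KO is known only as a bound. Il6 had signals of 240 on FGFR3Act and 115 on FGFR3KO, against 151 on FGFR3WT, so FGFR3Act stood 1.59-fold above FGFR3WT and at least 1.97-fold above FGFR3KO. Its signal-transducing receptor chain Il6st had 2286 on FGFR3Act and 3407 on FGFR3KO, against 3184 on FGFR3WT. Csf1, the macrophage growth factor that fibroblasts supply, had 4328 on FGFR3Act and 5277 on FGFR3KO, against 4699 on FGFR3WT, while its receptor Csf1r was above the floor on FGFR3Act alone, at 1446. The ligand thus differed by at most 1.22-fold between any 2 arrays, against at least 11.97-fold for the receptor between FGFR3Act and FGFR3WT. Csf3, the neutrophil growth factor, had 216 on FGFR3Act and 215 on FGFR3KO, against 169 on FGFR3WT. Il11 and Csf2 were below the floor throughout, with no signal over 11.1.

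No gene of the tumour necrosis factor system reached the 2-fold limit, and Tnf is known only as a bound. Tnf had signals of 141 on FGFR3Act and 22.5 on FGFR3KO, against 18.5 on FGFR3WT, at least 1.17-fold higher on FGFR3Act and close to the floor there. Tnfrsf1a, the receptor found on most cells, had 1147 on FGFR3Act and 1136 on FGFR3KO, against 1806 on FGFR3WT, so both mutants were lower, by 1.57-fold and 1.59-fold. Tnfrsf1b, the receptor known mainly from leukocytes, had 672 on FGFR3Act and 388 on FGFR3KO, against 464 on FGFR3WT. Nfkbia, the inhibitor that NF-kB induces against itself, had 582 on FGFR3Act and 630 on FGFR3KO, against 418 on FGFR3WT. Its other probe set had 317 on FGFR3Act and 171 on FGFR3KO, against 210 on FGFR3WT, so the 2 probe sets put FGFR3KO on opposite sides of FGFR3WT. Tnfaip3, a second such inhibitor, was below the floor, with no signal over 11.2.

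The acute-phase genes were high on FGFR3Act. Saa3, a serum amyloid A form made by fibroblasts and other cells outside the liver, had signals of 6555 on FGFR3Act and 2545 on FGFR3KO, against 1741 on FGFR3WT, 3.76-fold higher on FGFR3Act. Lcn2, an iron-scavenging lipocalin of neutrophils, macrophages and stroma, had 1249 on FGFR3Act and 87.1 on FGFR3KO, against 41.4 on FGFR3WT. It was above the floor on FGFR3Act alone, at least 10.3-fold higher than on FGFR3WT.

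On FGFR3KO, few members stood apart from FGFR3WT. Of 20 members that entered this pair, Il1rn was 2-fold or more above FGFR3WT, and Ackr3 and Ccl9 were 2-fold or more below it, Ccl9 by at least 2.27-fold. Of 5184 genes in the pair, 1.93% were above and 3.61% below FGFR3WT to that extent, and without the filter 1.28% and 2.38% of 7842 genes. Counts of 1 and 2 among 20 members are too small to set apart from those shares. The largest differences short of the limit were those of Cxcl1, 1.91-fold higher on FGFR3KO, and 1.26-fold on its other probe set, and of Tnfrsf1a, 1.59-fold lower. The macrophage list had 2 members in this pair, Cd14 and Cd52, and neither was shown to be 2-fold apart, Cd52 being below the floor on FGFR3WT.

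FGFR3Act was also set against FGFR3KO, a pair that shares the FGFR3Act array with the first. Of 28 members, 12 were 2-fold or more above FGFR3KO and 0 were 2-fold or more below it, against 8.33% and 7.49% of all 5297 genes. Without the filter, 27.9% of 43 members were above, against 5.62% of 7842 genes above and 5.06% below. The 12 were Ccl2 (2.10-fold), Ccl3 (at least 3.99-fold), Ccl6 (at least 3.15-fold), Ccl7 (2.79-fold), Ccl8 (at least 2.40-fold), Ccl9 (at least 20.6-fold), Cxcl1 (2.74-fold), Cxcl5 (2.31-fold), Ackr3 (4.90-fold), Ccr1 (at least 2.54-fold), Lcn2 (at least 10.2-fold) and Saa3 (2.58-fold). Il1rn was not among them, at 1.39-fold. Macrophage markers again accompanied these differences, with 12 of 16 2-fold or more higher on FGFR3Act.

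**Figure D2:**
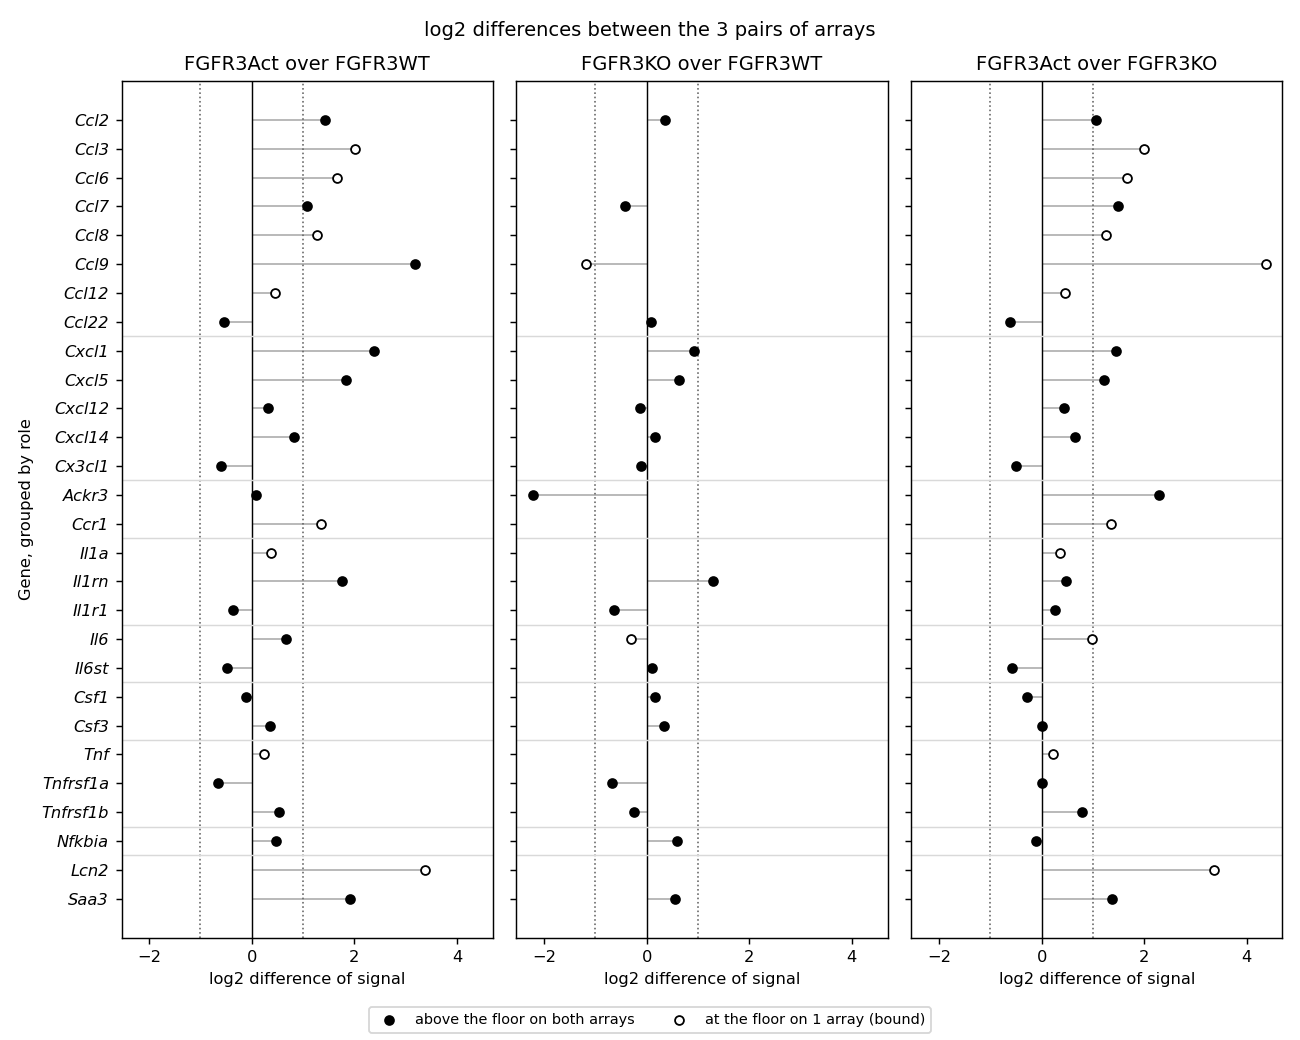
log2 difference of signal for the same 28 members in the 3 pairs of arrays, with dotted lines at 2-fold, filled points above the floor on both arrays and open points at the floor on 1 array. Between FGFR3KO and FGFR3WT, Il1rn lies beyond 2-fold on the higher side and Ackr3 and Ccl9 on the lower side, while both pairs with FGFR3Act have 12 members beyond 2-fold higher.

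The members were grouped by the cells they are known from as textbook background. Of 10 genes known mainly from macrophages that entered the pair of FGFR3Act and FGFR3WT, 5 were 2-fold or more higher on FGFR3Act (Ccl3, Ccl6, Ccl9, Ccr1 and Il1rn). Il1rn, Ccl22 and Tnfrsf1b of this kind were above the floor on all 3 arrays. Il1rn was also 2.44-fold higher on FGFR3KO than on FGFR3WT. Of 10 known from fibroblasts, 4 were 2-fold or more higher (Ccl7, Cxcl1, Cxcl5 and Saa3). Of 7 known from both, 3 were 2-fold or more higher (Ccl2, Ccl8 and Lcn2). Over all 5244 genes that entered this pair, 4.14% were 2-fold or more higher. The kinds differed in how they were measured, since 4 of the 10 macrophage genes and 10 of the 10 fibroblast genes were above the floor on both arrays. The other 6 macrophage genes entered through FGFR3Act alone and could differ in one direction only. Medians were taken over all members with a probe set, which does not lift that limit. Between FGFR3Act and FGFR3WT the median log2 difference was 0.42 for 14 macrophage genes, 0.49 for 12 fibroblast genes and 0.02 for 13 known from both, against 0.02 over all 7842 named genes. Between FGFR3Act and FGFR3KO the medians were 0.41 for macrophage genes, 0.82 for fibroblast genes and 0.01 for those known from both, against 0.01 over all genes. Between FGFR3KO and FGFR3WT all 4 medians were 0.01, the difference of the floors of these arrays. In the pairs with FGFR3Act, the medians of genes known from both and of all genes were likewise the difference of the floors. Such medians fall on genes below the floor on both arrays and do not show a lack of difference.

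**Figure D3:**
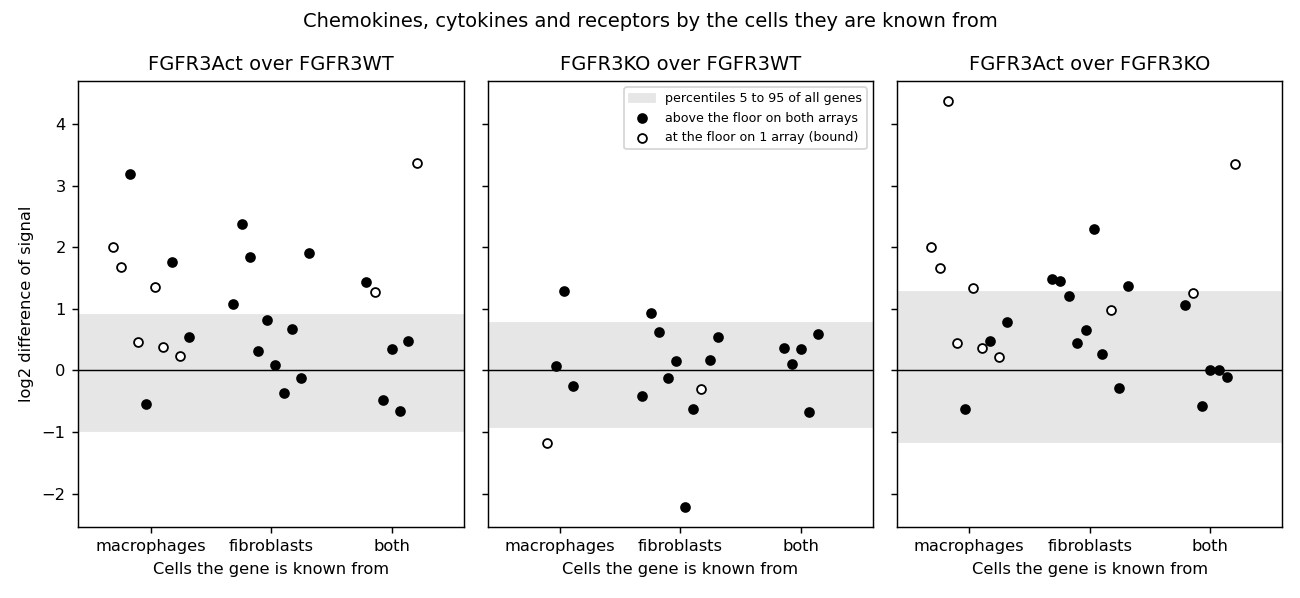
log2 difference of signal for members by the cells they are known from, in the 3 pairs of arrays, with filled and open points as above and grey bands from percentile 5 to 95 of all genes. Between FGFR3Act and FGFR3WT the band reached from -0.99 to 0.90. Above it lie 5 of 10 macrophage members, 4 of 10 fibroblast members and 3 of 7 members known from both. The other members drawn lie inside it.

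Few genes of the wider cytokine pathway reached 2-fold. Of 23 NF-kB pathway genes with a probe set, 20 entered the pair of FGFR3Act and FGFR3WT, with 1 above FGFR3WT by 2-fold or more, 0 below it and a median log2 difference of -0.15. The 1 was Ikbkg, the regulatory subunit of the IkB kinase, with a signal of 1308 on FGFR3Act and 389 on FGFR3KO, against 575 on FGFR3WT. This probe set is of a kind that may bind related transcripts, and without such probe sets (chosen after seeing the data) the log2 difference of Ikbkg was -0.0754. Against FGFR3KO, Ikbkg (3.36-fold) and Nfkbiz (at least 2.68-fold) were higher on FGFR3Act, and the co-activator Bcl3 was lower by 2.01-fold. Without that probe set the log2 difference of Ikbkg against FGFR3KO was 0.64. For Bcl3 the log2 difference against FGFR3KO ranged between -1.01 and -0.19 over the alternatives, so it passed the 2-fold limit only narrowly. Of 18 JAK-STAT genes with a probe set, 0 were shown to be 2-fold apart in any pair, with medians of -0.26 for FGFR3Act against FGFR3WT, 0.02 for FGFR3KO against FGFR3WT and -0.13 for FGFR3Act against FGFR3KO. Tyk2, a Janus kinase, had 43.1 on FGFR3Act and 96.7 on FGFR3KO, against 198 on FGFR3WT, and is known only as at least 1.62-fold lower on FGFR3Act and at least 1.63-fold lower on FGFR3KO.

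Other cytokine receptors went in both directions. Of 19 that entered the pair of FGFR3Act and FGFR3WT, Csf1r and the interferon-gamma receptor chain Ifngr2 (2.22-fold) were 2-fold or more higher on FGFR3Act, and Il13ra1 was at least 2.22-fold lower. On FGFR3KO, 3 of 17 were 2-fold or more lower than on FGFR3WT and 0 higher. These were Il4ra (2.49-fold), Il13ra1 (2.18-fold), which together form a receptor for interleukin-4 and interleukin-13, and Tnfrsf11b (2.87-fold), the decoy receptor for the osteoclast factor RANKL. Il13ra1 had a signal of 123 on FGFR3Act and 125 on FGFR3KO, against 273 on FGFR3WT, and so was near the floor in both mutants. Tnfrsf11b had 3344 on FGFR3Act and 1356 on FGFR3KO, against 3887 on FGFR3WT, with FGFR3KO as the low array, as for Ackr3. Of 24 other cytokine ligands, 4 were above the floor on FGFR3Act, and 0 were shown to be 2-fold apart in any pair. Tnfsf9, a ligand of the tumour necrosis factor family, had 173 on FGFR3Act and 56.4 on FGFR3KO, against 19.9 on FGFR3WT, and its excess on FGFR3Act is a bound of 1.43-fold over FGFR3WT and 1.42-fold over FGFR3KO.

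**Figure D4:**
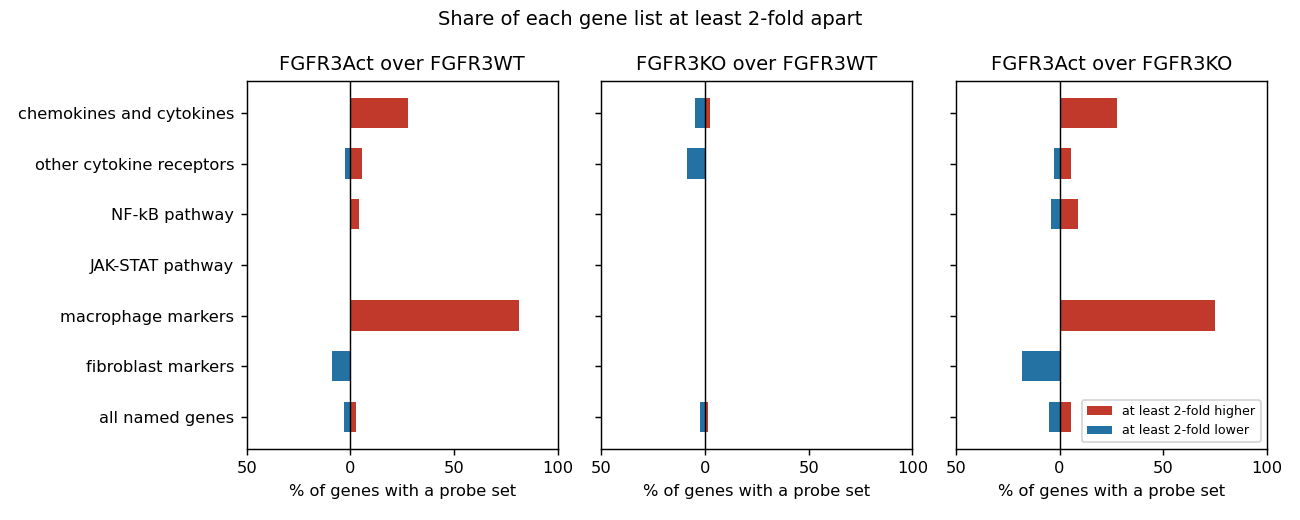
Percentage of the genes of each list with a probe set that were 2-fold or more higher (right of 0) or 2-fold or more lower (left of 0) in the 3 pairs of arrays. The chemokine and cytokine members reach 27.9% on the higher side in both pairs with FGFR3Act, above all named genes (2.77% and 5.62%) and below the macrophage markers.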

How the data were processed

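RNA of 3 mouse dermal fibroblast genotypes was measured, with 1 column of signal per genotype. The deposited intensities were made by the authors with MAS5, per the submitters' processing notes, which turns probe pairs into 1 signal and applies 1 scaling factor per array. Version, target and detection calls are not given, nor whether a column is 1 array or a mean. Means trimmed by 2% at each end lay between 606 and 614. The number of arrays limits the precision, and no replicate error exists. The 3' to 5' signal ratio of the beta-actin controls was 1.44 on FGFR3Act, 1.82 on FGFR3KO and 1.64 on FGFR3WT.

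Of 9889 probe sets, 18 were controls, and the platform annotation gave 9053 a single symbol, 9041 of which were matched by gene identifier to RefSeq GRCm38.p6. Signals were compared as log2 differences after the floor, with no further scaling (Python 3.11.15, pandas 2.3.3, numpy 2.4.6), and the arithmetic was tested on simulated data. A gene entered a pair when at least 1 of its arrays exceeded the floor. A difference of 2-fold or more is a size and not a test. The rule for named genes took every member, and of the other lists up to 4 genes 2-fold apart in each direction. Members, lists and cell sources were chosen with earlier results of these data known. Mast cell, T and B cell, dendritic cell, endothelial and keratinocyte markers were also examined. Alternatives were other scalings, floors, filters and probe set rules. Motif patterns were chosen after the differences had been seen. Promoter sequences are from RefSeq, GRCm38.p6, and no protein sequences were used here.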

Additional observations from a re-analysis of the deposited data

How the results depend on the processing

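No paired analysis was possible because each genotype had 1 array and the labels carry no replicate numbers. Counts, medians and differences of the members were recomputed under 9 alternatives listed beforehand and 2 chosen after seeing the data, where an alternative gave a value. The other lists, known sources and named genes outside the members were put through the same alternatives after seeing the data, except the one that leaves out macrophage members. No difference of a member 2-fold or more apart changed sign under any of them. Where the lower signal is raised to a floor the sign is fixed, so for such members this shows little. The 12 of 28 members 2-fold or more above FGFR3WT on FGFR3Act became 19 of 35 with the floor at the 20th percentile and 7 of 20 with the floor at the 60th percentile. They became 7 of 20 when both arrays had to be above the floor, and 7 without the members known from macrophages (chosen after seeing the data). The shares over all genes were not recomputed under these alternatives, so the counts have no background beside them. The median log2 difference of the 28 members in this pair, 0.60, was 1.38 with the floor at the 20th percentile, 1.25 when an offset replaced the floor and 0.08 with no filter, which takes in all 43. Of FGFR3Act against FGFR3KO, the 12 became 20 with the floor at the 20th percentile and 6 with both arrays above the floor, and the median of 0.73 became 0.0134 with no filter, since 15 of the 43 members then entered at the floor. Of FGFR3KO against FGFR3WT, the 1 higher member became 2 after quantile normalisation, 2 after median centring, 4 with the floor at the 20th percentile, 0 with the floor at the 60th percentile and 0 without the macrophage members. The 2 lower members became 1 with the floor at the 60th percentile, 1 with both arrays above the floor and 1 without the macrophage members. Ccl3, Ccl6 and Il1rn fell under 2-fold between FGFR3Act and FGFR3WT with the floor at the 60th percentile, at 0.43, 0.09 and 0.74 in log2. Ccl8 and Ccr1 were below that floor on both arrays and had no value in the pair. Median centring put the median of all genes above the floor on both arrays at 0.07 for FGFR3Act against FGFR3WT, where it was -0.07 unscaled. The count of members 2-fold or more lower on FGFR3Act was 0 in both its pairs under every alternative run. Between FGFR3Act and FGFR3WT the 5 macrophage members 2-fold or more higher ranged over the alternatives between 1 and 9. The 4 fibroblast members ranged between 4 and 5, and the 3 known from both between 1 and 5. The medians over all with a probe set ranged between -0.11 and 2.09 for macrophage members and between 0.20 and 0.74 for fibroblast members. For members known from both they ranged between -0.11 and 0.47. The log2 difference of Ikbkg was -0.0754 without probe sets of the _f_, _g_, _i_, _r_ and _s_ kinds and 0.56 as the mean of its probe sets, and that of Ifngr2 was 0.26 with the floor at the 60th percentile. JAK-STAT genes 2-fold or more lower on FGFR3Act were 2 with the floor at the 20th percentile.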

Other observations

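Members below the floor on every array were also described by which array read highest, although signals of this size are noisy. Of 15 such members, 11 read highest on FGFR3Act, 1 on FGFR3KO and 3 on FGFR3WT. Over all 2460 named genes below the floor on every array, 38.0% read highest on FGFR3Act, 39.8% on FGFR3KO and 22.2% on FGFR3WT. Among the 11 were Ccl4, Ccl5, Ccl11, Cxcl2 and Cxcl10.

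The array's own control probe sets include 3 cytokine genes and Fas, the receptor that triggers cell death, which lie outside the named genes. The Fas control read 360 on FGFR3Act and 219.6 on FGFR3KO, against 456 on FGFR3WT. The named Fas probe set read 143 on FGFR3Act and 74.1 on FGFR3KO, against 181 on FGFR3WT, so FGFR3KO was the low array on both, with different probes. The controls for interleukin-10, interleukin-2 and interleukin-4 were below the floor on all 3 arrays, with no signal over 81.2.

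Markers of other cells of skin and blood were compared between FGFR3Act and FGFR3WT. Itgax, a myeloid integrin of dendritic cells and some macrophages, had a signal of 289 on FGFR3Act and 122 on FGFR3KO, against 73.3 on FGFR3WT. Of 8 mast cell, 7 T and B cell, 6 endothelial and 4 keratinocyte markers with a probe set, 0 were shown to be 2-fold apart in that pair. Of 6 dendritic cell markers, Itgax was the 1 that was, at least 2.39-fold higher on FGFR3Act, and the 6 summed to 815 on FGFR3Act and 593 on FGFR3KO, against 446 on FGFR3WT. Among the 7 neutrophil markers given above, S100a8 was the 1 shown to be 2-fold apart in that pair, at least 2.53-fold higher on FGFR3Act.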
